A study of Zea mays with 10 samples.

Results

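Genes for the making of, and the response to, 2 growth hormones were followed through the bulk transcriptomes of young maize endosperm, the nutritive tissue of the kernel. The members are the 47 gene identifiers that the study files under gibberellin (GA) and brassinosteroid (BR) in its list of hormone genes, out of 45953 genes counted. GA accounts for 26 of them, with 23 genes of GA biosynthesis and 3 of the response to GA. BR accounts for 21, with 12 genes of BR biosynthesis and 9 of the response to BR. Membership came from pathway databases and an earlier publication and used no value of these libraries. The lists were, however, chosen for this report with earlier results of these data known. Each member was found by its identifier in both count tables. All material was wild-type endosperm of the inbred line B73, with no transgene or mutant. The replicated comparison had 3 libraries at 6 days after pollination (DAP) and 3 at 7 DAP. The protoplast experiment had 1 library of undigested endosperm and 1 of protoplasts, cells freed from their walls by cellulase, macerozyme and pectolyase, at each of the same stages.

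Gibberellins are diterpenoid hormones that promote cell elongation and, in cereal aleurone, the mobilization of reserves during germination. Cyclases in the plastid and oxidases in the endomembranes and cytosol build them, GA oxidases make the bioactive forms and inactivate them, and the soluble receptor GID1 binds bioactive GA and marks the DELLA repressors for degradation. Brassinosteroids are steroid hormones made from the sterol campesterol largely by cytochrome P450 oxidases, which carry a heme iron. They are perceived by a receptor kinase at the cell surface, and their signal reaches the nucleus through the BZR1 family of transcription factors.

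Few members carry a name in the sources. They are GA20OX2 (a GA oxidase that makes precursors of bioactive GA) and GID1 among the GA genes, and DRG10, DWIL1 (dwarf and irregular leaf1, whose mutant plants have shortened internodes) and a homolog of Scarecrow-like protein 28 (Zm00001d045507, of the GRAS family of transcription regulators) among the BR genes. Annotations without a symbol are an oxidoreductase (Zm00001d003311, GA biosynthesis), iron-binding proteins (Zm00001d052475 and Zm00001d037745, BR biosynthesis) and a serine/threonine protein kinase (Zm00001d008893, BR response). The other members are given by identifier. Levels are given in CPM, counts relative to the library total, scaled by TMM factors (trimmed mean of M values, from edgeR) within each count table. They are not divided by gene length, so they compare libraries for 1 gene and not genes with each other, and levels in different tables were normalized separately.

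The libraries held between 15911047 and 30203337 counts, so that 3 counts, taken as the limit of detection, corresponded to between 0.106 and 0.192 CPM. Every marker of the aleurone, transfer layer, starchy endosperm, embryo surrounding region (ESR) and endosperm adjacent to scutellum (EAS) had at least 1 count in all 10 libraries. From 6 to 7 DAP in the replicated libraries, the summed level of 3 basal endosperm transfer layer (BETL) markers went from between 486 and 531 CPM to between 163 and 171 CPM, with 3 of 3 lower, and that of 4 ESR markers from between 318 and 328 CPM to between 1750 and 1760 CPM, with 4 of 4 higher. The sum of 4 embryo genes (OLE1, OLE3, GLB1 and OBAP1A) went from between 65.2 and 71.9 CPM to between 543 and 570 CPM, with 4 of 4 higher. Among all genes tested, 28.2% were called higher and 28% lower at 7 DAP. The part of the marker shifts in the results on hormone genes was not tested, and in bulk tissue fewer cells of a type cannot be told apart from less RNA per cell.

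Of the 26 GA genes, 2 had no count in any library and 7 more stayed too low to be tested between the stages, with at most 5 counts in a replicated library. Of the 21 BR genes, 5 had no count anywhere and 2 more were too low, with at most 7 counts. The 5 genes without a count all belong to the 12 genes of BR biosynthesis, whereas each of the 9 BR response genes and each of the 3 GA response genes had at least 1 count in all 10 libraries. A count of 0 allows up to 3 counts, so these genes were not detectable at this depth.

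The first comparison asks how the hormone genes differ between 6 and 7 DAP, while the cell types of the endosperm differentiate. Of 17 GA genes tested, 6 rose, 1 fell and 10 did not pass an adjusted p of 0.05 (quasi-likelihood F test of edgeR, Benjamini-Hochberg adjusted over all genes tested). Among all 21486 genes tested, 56.3% passed, as 28.2% rose and 28% fell, and the median log2 fold change was 0.02, beside 0.14 for the GA genes. The 6 GA genes that rose and the 1 that fell all belong to biosynthesis. Of those that rose, Zm00001d032961, Zm00001d012212 and Zm00001d034898 could be tested only through their 7 DAP libraries, where they are high. Their rises therefore do not show a direction of the GA genes. BR genes went both ways, with 3 of 14 tested higher, 5 lower and 6 not past the threshold, and a median of -0.08. Of the 5 that were lower, Zm00001d010366 could be tested only through its 6 DAP libraries, where it is high. The small falls of Zm00001d004957, Zm00001d052475 and Zm00001d039407 did not pass in every alternative fit. These falls therefore do not show a direction of the BR genes. At the study's own limit of a log2 fold change over 2, 2 GA genes rose and 1 BR gene fell, while 2.54% of all tested genes rose and 0.451% fell by that much. The 2 GA genes are Zm00001d032961 and Zm00001d012212. The libraries of the stages did not overlap for 9 of the 17 GA genes and 8 of the 14 BR genes, compared with 61.8% of all genes.

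**Figure D1:**
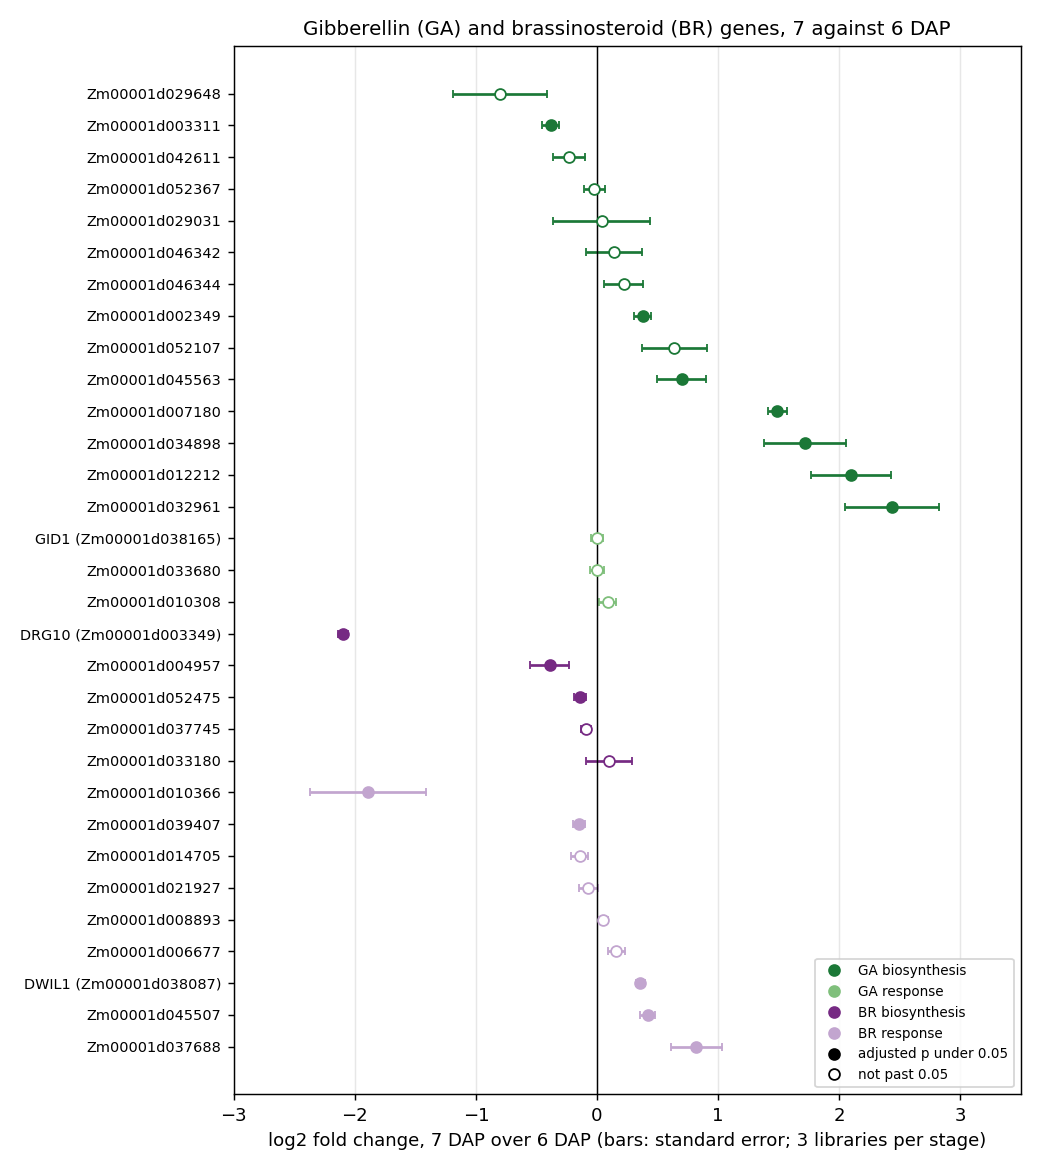
Log2 fold change of each tested GA and BR gene at 7 against 6 DAP (horizontal axis, bars are standard errors, 3 libraries per stage), with filled points past an adjusted p of 0.05. GA biosynthesis genes reach up to 2.44, the 3 GA response genes lie between 0.00 and 0.09, and DRG10 lies lowest at -2.10.

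The greatest rise belonged to Zm00001d032961 of GA biosynthesis. Its level was 0.256, 0.256 and 0.238 CPM in the 6 DAP libraries and 1.15, 1.67 and 1.31 CPM in those of 7 DAP. It was thus close to the limit of detection at 6 DAP, with between 4 and 6 counts per library, and above it in every 7 DAP library. The log2 fold change was 2.44 (SE 0.39, adjusted p = 2.09e-05). The gene passed the filter through its 7 DAP libraries alone.

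A second scarce GA biosynthesis gene, Zm00001d012212, stood at 0.640, 0.576 and 0.535 CPM at 6 DAP and at 2.54, 1.62 and 3.49 CPM at 7 DAP. The 7 DAP libraries spread widely but stayed above all those of 6 DAP. Zm00001d012212 had 15, 9 and 9 counts at 6 DAP and passed the filter through its 7 DAP libraries. The log2 fold change of this gene was 2.10 (SE 0.33, adjusted p = 1.59e-05), and 1.79 without replicate 3 of 7 DAP, which took it below the limit of 2. The third, Zm00001d034898, had 0.811, 0.448 and 0.357 CPM at 6 DAP against 1.51, 1.86 and 2.23 CPM at 7 DAP (log2 fold change 1.72, SE 0.34, adjusted p = 1.88e-04). It had 19, 7 and 6 counts at 6 DAP and passed the filter through its 7 DAP libraries.

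Among GA biosynthesis genes with more counts, Zm00001d007180 had 12.9, 11.8 and 12 CPM at 6 DAP and 35.8, 32.1 and 35.7 CPM at 7 DAP. Replicates of 1 stage differed little beside the distance between the stages. The mean rose from 12.3 ± 0.588 to 34.5 ± 2.11 CPM (SD, n = 3), which is 2.80-fold (log2 fold change 1.49, SE 0.08, adjusted p = 5.71e-13). At 6 DAP the oxidoreductase Zm00001d003311 took the largest part of the reads of the GA biosynthesis list, between 26.7% and 28.7%, and at 7 DAP it was Zm00001d007180, with between 23.7% and 25.6%.

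Zm00001d003311 was the GA gene that fell. It was at 32.6, 28.9 and 29.7 CPM at 6 DAP and at 24.7, 23.6 and 22.1 CPM at 7 DAP, without overlap. The log2 fold change was -0.38 (SE 0.07, adjusted p = 8.68e-05), and the direction and the call held in each alternative fit that was run. The remaining GA genes that rose were Zm00001d045563, from 2.44 ± 0.676 to 4.05 ± 0.397 CPM (log2 fold change 0.70), and Zm00001d002349, from 21.9 ± 1.26 to 28.5 ± 1.77 CPM (0.38; SD, n = 3). The 7 genes of GA biosynthesis that were tested and did not pass had log2 fold changes between -0.80 and 0.64.

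None of the 3 genes of the GA response list passed the threshold with TMM scaling. The receptor gene GID1 (Zm00001d038165) had 49.4, 49.3 and 54.0 CPM at 6 DAP and 50.2, 50.3 and 51.5 CPM at 7 DAP, and the stages overlapped. Its log2 fold change was 0.00 (SE 0.05, adjusted p = 0.951). Zm00001d010308 had 26.5, 25.2 and 25.6 CPM against 29.0, 25.6 and 28 CPM (0.09, SE 0.07, adjusted p = 0.256). Zm00001d033680 had 37.8, 34.7 and 36.3 CPM against 33.8, 35.2 and 39.6 CPM (0.00, SE 0.06, adjusted p = 0.987). A p that misses the threshold does not show equality, but the standard errors of these 3 estimates were at most 0.07 on the log2 scale. They do not cover the choice of scaling. With library totals the estimates were 0.11 for GID1, 0.21 for Zm00001d010308, which then passed, and 0.11 for Zm00001d033680.

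GA20OX2 (Zm00001d007894) was not detectable in the replicated endosperm. It had 0 counts in each 6 DAP library and 0, 2 and 3 counts at 7 DAP, and was too low to be tested.

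The strongest change among the BR genes was in DRG10 (Zm00001d003349), on the list of BR biosynthesis. Its level was 262, 270 and 272 CPM at 6 DAP and 65.4, 64.5 and 57.9 CPM at 7 DAP. Every 7 DAP library lay far below every 6 DAP library. The mean went from 268 ± 5.06 to 62.6 ± 4.13 CPM (SD, n = 3), 4.28-fold lower (log2 fold change -2.10, SE 0.04, adjusted p = 1.92e-20). The symbol of this gene was taken from a table of the study that lists genes differing between the stages in its own analysis, so its direction is not independent evidence. DRG10 took between 58.1% and 59.8% of the reads of the BR biosynthesis list at 6 DAP. The summed level of the list went from between 452 and 458 CPM at 6 DAP to between 229 and 242 CPM at 7 DAP, when the iron-binding Zm00001d052475 held the largest part.

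The other genes of BR biosynthesis moved little. Zm00001d052475 had 111, 108 and 99.6 CPM at 6 DAP and 104, 90.9 and 94.5 CPM at 7 DAP, and the stages overlapped (log2 fold change -0.14, SE 0.05, adjusted p = 0.0148). The mean of Zm00001d004957 was 5.13 ± 0.581 CPM at 6 DAP and 3.92 ± 0.639 CPM (SD, n = 3) at 7 DAP (-0.39, adjusted p = 0.0478), also with overlap, and this call was lost in 8 of the 12 alternative fits, DESeq2 among them. The second iron-binding member, Zm00001d037745, had 68.6, 72.2 and 75.3 CPM against 65.5, 68.6 and 68.2 CPM and did not pass (-0.09, adjusted p = 0.0833). Zm00001d033180 had 3.63, 2.75 and 3.15 CPM against 2.72, 4.10 and 3.39 CPM (0.10, adjusted p = 0.697).

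In the BR response list 3 of 9 genes rose and 2 fell. The Scarecrow-like homolog Zm00001d045507 had 89.1, 83.6 and 68.7 CPM at 6 DAP and 105, 110 and 110 CPM at 7 DAP. Its 6 DAP libraries differed among themselves more than those of 7 DAP, yet the stages did not overlap (log2 fold change 0.42, SE 0.06, adjusted p = 5.27e-06). DWIL1 (Zm00001d038087) was steadier, with 57.9, 57.8 and 55.0 CPM against 73.4, 74.4 and 71.4 CPM (0.36, SE 0.04, adjusted p = 3.26e-07). Both genes are also on the study's list of genes of the G2/M phase of the cell cycle, of which 128 of 300 tested rose and 61 fell, where 28.2% of all genes rose and 28% fell. The scarcer Zm00001d037688 had 2.01, 2.18 and 1.43 CPM against 3.32, 3.43 and 3.20 CPM (0.82, SE 0.21, adjusted p = 2.44e-03).

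The largest fall in the BR response list was that of the scarce gene Zm00001d010366, with 0.853, 0.896 and 0.594 CPM at 6 DAP and 0.302, 0.238 and 0.0969 CPM at 7 DAP (log2 fold change -1.89, SE 0.48, adjusted p = 2.28e-03). Its 7 DAP values stood on between 2 and 5 counts per library, and it passed the filter through its 6 DAP libraries alone. The other gene that fell was Zm00001d039407, from 61.4 ± 4.23 to 55.1 ± 1.05 CPM (SD, n = 3; -0.15, adjusted p = 0.0144). The kinase Zm00001d008893 had 90.8, 96.4 and 93.8 CPM against 95.8, 98.4 and 95.4 CPM, with overlap between the stages and no call (0.05, SE 0.04, adjusted p = 0.314). The level of Zm00001d021927 was 17.6, 16.0 and 15.5 CPM against 16.1, 14.8 and 16.0 CPM (-0.07, adjusted p = 0.497).

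**Figure D2:**
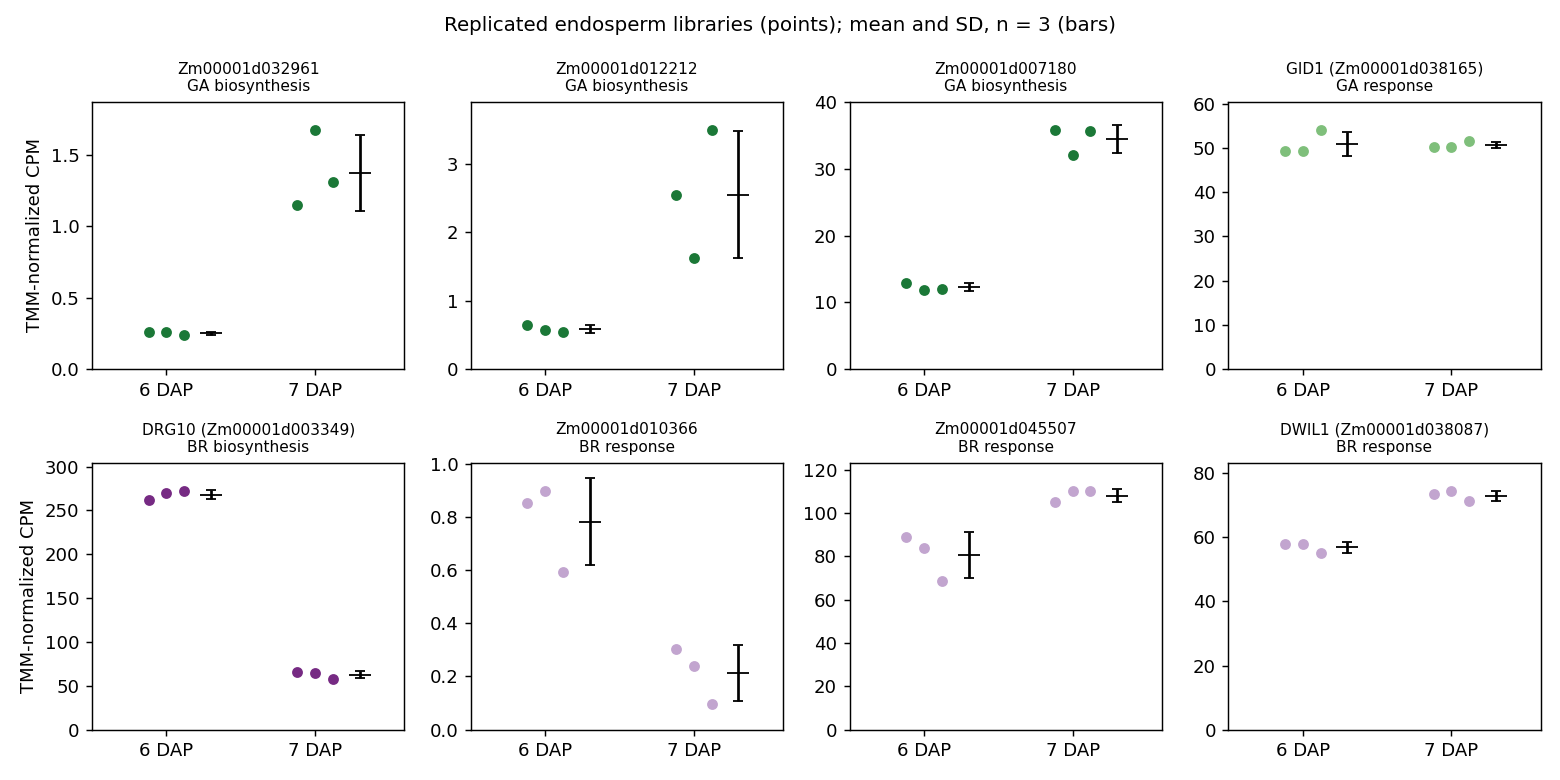
TMM-normalized CPM (vertical axes, each from 0) of 4 GA genes (top) and 4 BR genes (bottom) in the replicated libraries, with 1 point per library and the mean with its SD (n = 3) beside them. The stages overlap for GID1, which lies between 49.3 and 54.0 CPM, and not for the other 7 genes shown.

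All 7 GA calls held under each alternative in which the gene was tested, whereas 5 of the 8 BR calls did. The GA genes Zm00001d032961, Zm00001d012212 and Zm00001d034898 and the BR gene Zm00001d010366 were not tested with at least 10 counts in every library. That filter left 4 GA genes higher, so it gives no check of these scarce genes. Scaling by library totals alone raised the median of all tested genes to 0.13 on the log2 scale and the share of rises among calls from 50.2% to 66.8%. It gave 8 GA genes higher and 1 lower, adding Zm00001d052107 of GA biosynthesis (0.76, adjusted p = 0.0248) and Zm00001d010308 of the GA response (0.21, adjusted p = 0.0125). It gave 5 BR genes higher, adding the response genes Zm00001d006677 (0.28) and Zm00001d008893 (0.16), and 2 lower, as the small falls of Zm00001d004957, Zm00001d052475 and Zm00001d039407 no longer passed. The count of BR genes that fell was also 3 without replicate 2 or without replicate 3 of 7 DAP, and that of GA genes that fell was 2 without replicate 3 of 6 DAP or without replicate 2 of 7 DAP.

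The undigested endosperm of the protoplast experiment gives a further pair of libraries of 6 and 7 DAP that entered none of these fits. All 15 members called between the stages moved in the same direction there, on the scale of log2(CPM + 1), as did 94.1% of all called genes. In the pair of protoplast libraries 10 of the 15 moved in the same direction, 4 moved in the opposite one and Zm00001d032961 had no count at either stage, and 71.5% of all called genes moved in the same direction. Some of these changes were within counting error. In undigested endosperm this was Zm00001d039407 (-0.02). In protoplasts these were DRG10 (-0.08), DWIL1 (0.04), Zm00001d039407 (-0.07) and Zm00001d034898 (0.21) among the same directions. Among the opposite ones it was Zm00001d002349 (-0.08). With 1 library per stage, these directions carry no test.

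The difference of DRG10 between 6 and 7 DAP was large in undigested endosperm and small in protoplasts. Undigested endosperm had 242 CPM at 6 DAP and 52.3 CPM at 7 DAP, a difference of -2.11 on the log2(CPM + 1) scale, and protoplasts had 50.3 and 48.2 CPM, a difference of -0.08. The protoplasts of 6 DAP thus lay near the 7 DAP libraries of this experiment and far below the undigested endosperm of their own stage. The summed BETL markers had 356 and 124 CPM in undigested endosperm and 88.9 and 77.8 CPM in protoplasts, but BETL9 made up most of this sum and the 3 markers did not move alike. BETL9 had 293 and 106 CPM against 56.3 and 53.4 CPM, TCRR1 had 36.2 and 7.86 CPM against 12.4 and 7.28 CPM, and MRP1 had 27.4 and 10.3 CPM against 20.2 and 17.1 CPM. A fall between the stages was not particular to transfer layer markers. Of the study's genes of the S phase of the cell cycle, 116 of 136 tested were lower at 7 DAP, where 28% of all genes fell. Their sum was 21100 and 15500 CPM in undigested endosperm and 15100 and 17700 CPM in protoplasts. The part of transfer layer cells or of the cell cycle in the level of DRG10 was not tested.

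**Figure D3:**
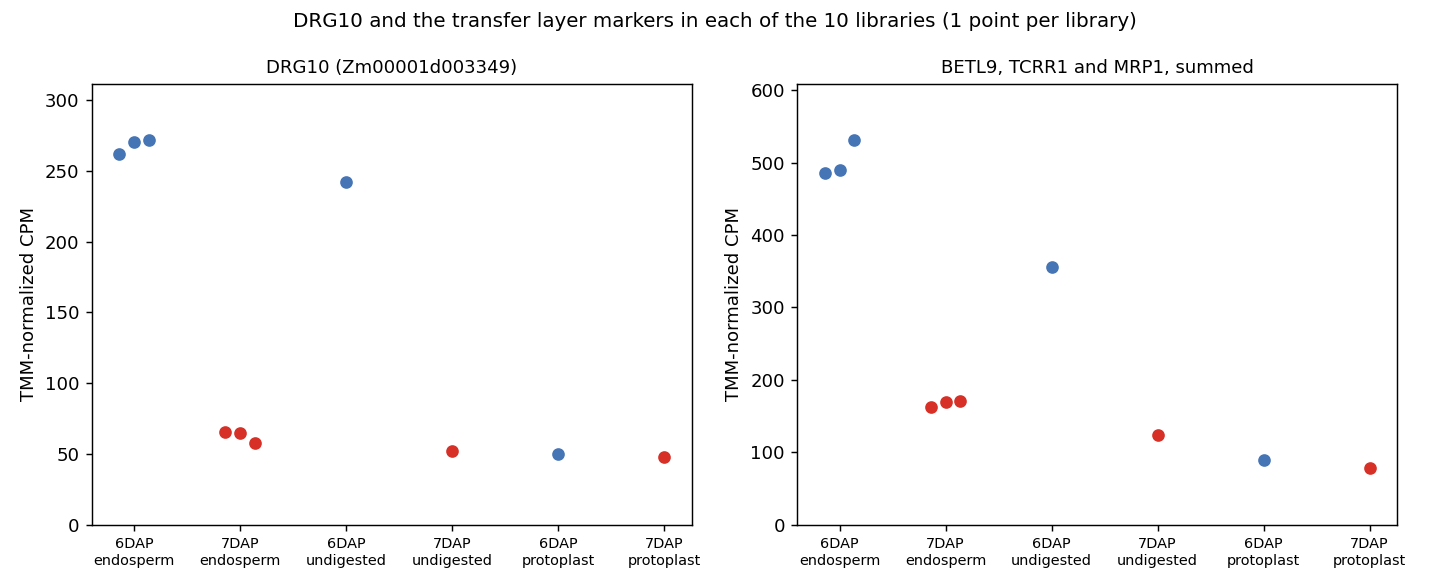
TMM-normalized CPM of DRG10 (left) and summed over the BETL markers BETL9, TCRR1 and MRP1 (right) in each of the 10 libraries, with 1 point per library, 6 DAP in blue and 7 DAP in red. DRG10 lies between 242 and 272 CPM in undigested and replicated 6 DAP endosperm and between 48.2 and 65.4 CPM in the remaining libraries. The replicated and the other libraries were normalized separately.

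The second comparison asks how the levels in protoplasts, from which single cells were profiled, differ from those of intact endosperm. It had 1 library per stage and group, so that the stages served as replicates of each other and the spread between preparations of 1 stage was not measured. GA genes moved both ways. Of 17 tested, 3 were higher in protoplasts, 3 lower and 11 not past the threshold, and each of the 6 that passed also changed by over 1 on the log2 scale. Of these, GA20OX2 and Zm00001d029648 could be tested only through the protoplast libraries, and Zm00001d012212 only through the undigested ones. Their calls therefore do not show a direction of the GA genes. Among all 22799 genes tested, 39.4% passed, with 23% higher and 16.3% lower, and 18.4% were higher and 7.37% lower by over 1. Of 15 BR genes tested, 2 were higher, 3 lower and 10 not past the threshold, with 1 in each direction by over 1. The median log2 fold change was -0.23 for GA genes, -0.44 for BR genes and -0.03 for all genes.

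**Figure D4:**
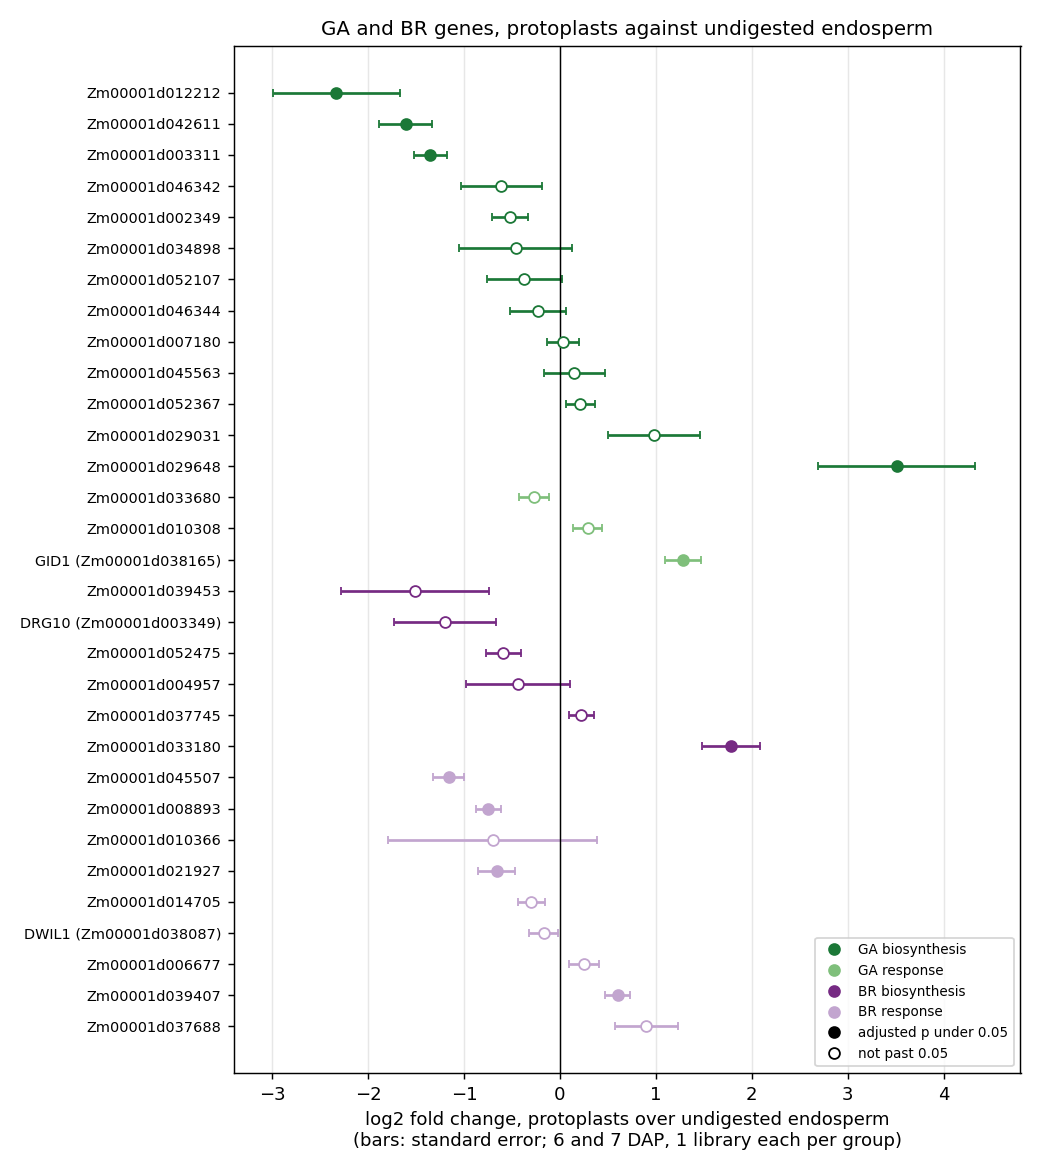
Log2 fold change of each tested member in protoplasts against undigested endosperm (horizontal axis, bars are standard errors), with filled points past an adjusted p of 0.05. GA20OX2 is left out because both undigested libraries had no count. Zm00001d029648 lies highest at 3.51 and Zm00001d012212 lowest at -2.33, both of GA biosynthesis.

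GA20OX2, which was at 0 counts in undigested endosperm of both stages, had 16 counts in protoplasts of 6 DAP and 62 in those of 7 DAP, or 0.636 and 2.19 CPM. Against a floor of 3 counts per library, its mean over both stages was at least 11.3-fold higher in protoplasts. This mean was led by 7 DAP, where the bound was 17.7-fold. The fitted difference had an adjusted p of 0.0147 (edgeR), and GA20OX2 passed the filter through the protoplast libraries alone. Another gene of GA biosynthesis, Zm00001d029648, had 1.13 and 0.207 CPM in undigested endosperm at 6 and 7 DAP and 4.97 and 10 CPM in protoplasts (log2 fold change 3.51, SE 0.82, adjusted p = 0.0276). It had 27 and 5 counts in undigested endosperm and passed the filter through the protoplast libraries. It was low in all replicated libraries too, at between 0.362 and 1.28 CPM.

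GID1 was the GA response gene that rose in protoplasts. It had 57.3 and 51.8 CPM in undigested endosperm and 112 and 157 CPM in protoplasts, higher at both stages (log2 fold change 1.28, SE 0.19, adjusted p = 8.00e-03). The remaining response genes did not pass, with 23.5 and 23.9 CPM against 26.8 and 31.2 CPM for Zm00001d010308 (0.29, adjusted p = 0.194) and 38.0 and 38.1 CPM against 28 and 35.4 CPM for Zm00001d033680 (-0.27, adjusted p = 0.227). GID1 accordingly took 48.3% and 45.5% of the reads of its list in undigested endosperm and 67.1% and 70.3% in protoplasts.

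Lower in protoplasts were the oxidoreductase Zm00001d003311, Zm00001d042611 and Zm00001d012212. Zm00001d003311 had 27.3 and 21.5 CPM in undigested endosperm and 10.7 and 8.41 CPM in protoplasts (log2 fold change -1.35, SE 0.17, adjusted p = 4.56e-03). Zm00001d042611 had 14.4 and 10.5 CPM against 3.66 and 4.45 CPM (-1.61, SE 0.28, adjusted p = 0.0118), and Zm00001d012212 had 0.796 and 1.70 CPM against 0.0795 and 0.459 CPM (-2.33, SE 0.66, adjusted p = 0.0446). Zm00001d012212 had 2 and 13 counts in protoplasts and passed the filter through the undigested libraries. Its call was lost with DESeq2, without a filter and without the stage term, whereas the calls of the other 5 GA genes held in each fit in which they were tested.

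Some of the genes that rose between the stages were also compared between undigested endosperm and protoplasts. Zm00001d007180 had 11.6 and 30.2 CPM in undigested endosperm and 13.3 and 27.6 CPM in protoplasts, so that it was higher at 7 than at 6 DAP in both kinds of library, and it did not differ between them past the threshold (log2 fold change 0.03, SE 0.17). Zm00001d032961 had 5 and 46 counts in undigested endosperm and none in either protoplast library. It was too low to be tested, and at 7 DAP it was at least 18.0-fold higher in undigested endosperm against a floor of 3 counts. The level of Zm00001d034898 was 0.461 and 1.49 CPM in undigested endosperm and 0.517 and 0.777 CPM in protoplasts.

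Among genes of BR biosynthesis only Zm00001d033180 passed, with 2.72 and 5.21 CPM in undigested endosperm and 12.8 and 13.3 CPM in protoplasts (log2 fold change 1.78, SE 0.30, adjusted p = 0.0109), 3.43-fold higher. DRG10 did not pass (-1.20, SE 0.53, adjusted p = 0.134), its difference being -2.36 at 6 DAP and -0.33 at 7 DAP on the log2(CPM + 1) scale. The iron-binding genes had 114 and 94.1 CPM against 62.7 and 76.1 CPM (Zm00001d052475, -0.59, adjusted p = 0.0546) and 82.7 and 83.3 CPM against 92.5 and 102 CPM (Zm00001d037745, 0.22, adjusted p = 0.216).

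In the BR response list 3 genes were lower in protoplasts and 1 was higher. The Scarecrow-like homolog Zm00001d045507 had 97.8 and 119 CPM in undigested endosperm and 37.6 and 62.1 CPM in protoplasts (log2 fold change -1.16, SE 0.16, adjusted p = 6.47e-03), and it was higher at 7 than at 6 DAP in both kinds of library. The kinase Zm00001d008893 had 90.4 and 95.3 CPM against 53.8 and 56.9 CPM (-0.75, SE 0.13, adjusted p = 0.0113), and Zm00001d021927 had 17.8 and 16.3 CPM against 9.94 and 11.7 CPM (-0.66, SE 0.19, adjusted p = 0.0480), a call that did not hold in 4 of the alternative fits. Zm00001d039407 was higher, with 53.0 and 49.6 CPM against 79.3 and 76.5 CPM (0.60, SE 0.13, adjusted p = 0.0215).

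DWIL1 had 57.9 and 78.3 CPM in undigested endosperm and 58.9 and 61.3 CPM in protoplasts and did not pass (-0.17, SE 0.15, adjusted p = 0.428). Of the G2/M genes, to which DWIL1 and Zm00001d045507 also belong, 206 of 299 tested were lower in protoplasts and 11 higher, where 16.3% of all genes were lower and 23% higher. The level of Zm00001d037688 was 1.72 and 3.10 CPM against 2.54 and 7.10 CPM (0.90, adjusted p = 0.0894), and that of Zm00001d010366 was 0.838 and 0.248 CPM against 0.119 and 0.530 CPM (-0.70, adjusted p = 0.635).

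**Figure D5:**
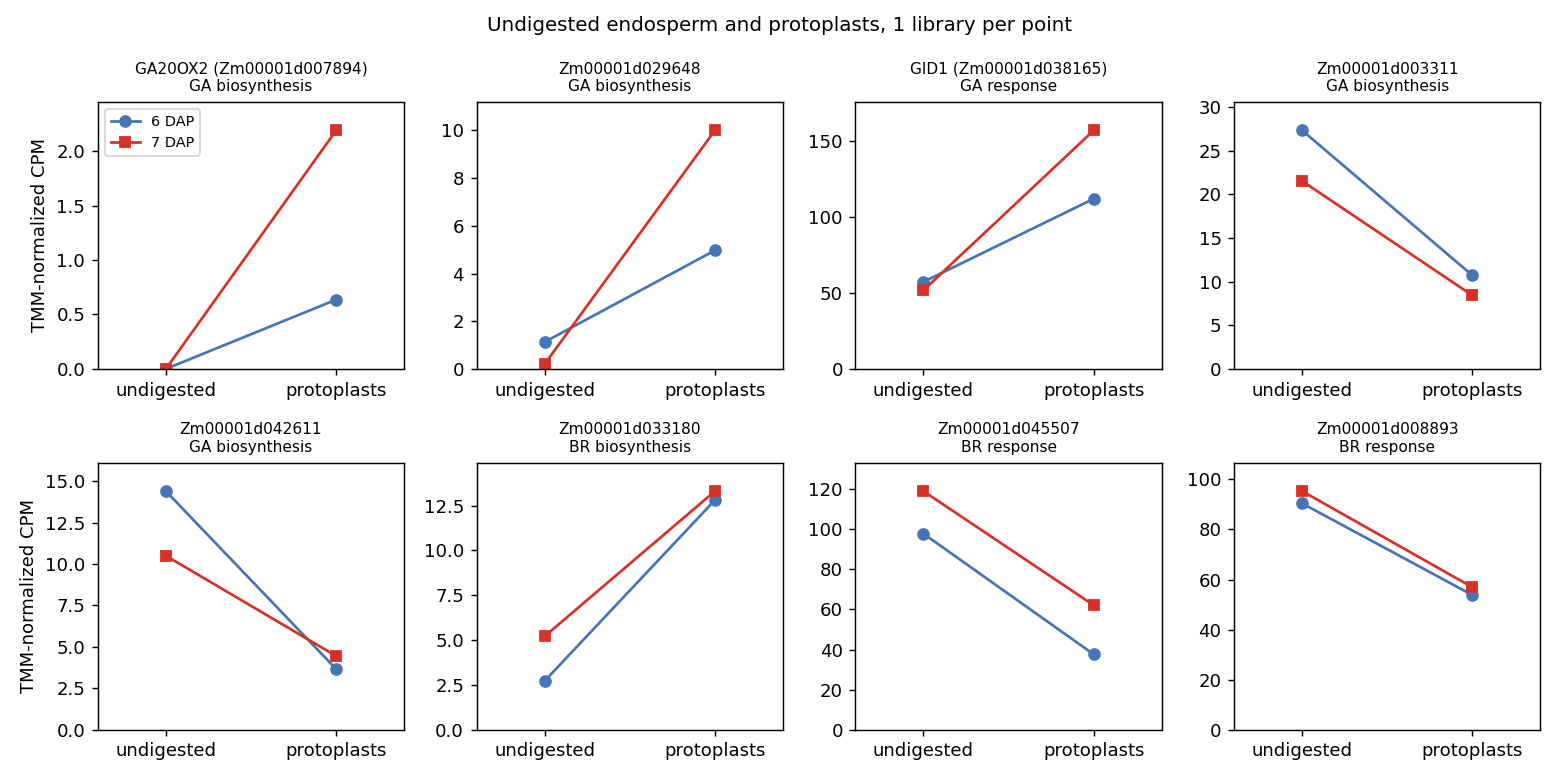
TMM-normalized CPM (vertical axes, each from 0) of 4 genes of the GA lists in the top row, and of 1 further GA gene and 3 BR genes in the bottom row, in undigested endosperm and protoplasts at 6 DAP (blue circles) and 7 DAP (red squares), with 1 library per point. GA20OX2, Zm00001d029648, GID1 and Zm00001d033180 are higher in protoplasts at both stages, and the other 4 genes are lower at both.

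The libraries of this comparison also differed in cell type markers. The sum of the 5 starchy endosperm markers was 5070 and 7020 CPM in undigested endosperm and 1960 and 1720 CPM in protoplasts, with 4 of 5 lower. The sum of the 4 ESR markers was 328 and 1780 CPM against 84.4 and 696 CPM, with 4 of 4 lower, and that of the 3 EAS markers was 33.0 and 88.7 CPM against 12.3 and 11.8 CPM, with 2 of 3 lower. Of the 3 aleurone and the 3 BETL markers 1 each was lower, and 0 of the 4 embryo genes passed at an adjusted p of 0.05, with sums of 53.9 and 441 CPM against 83.6 and 225 CPM. Among all genes tested, 16.3% were lower and 23% higher in protoplasts. The part of the cell types in the differences of the hormone genes was not tested. With library totals the median of all genes was -0.20 and the share of genes higher among those called fell from 58.5% to 46.1%. The GA genes then gave 3 higher and 4 lower, and the BR genes 1 higher and 4 lower, Zm00001d039407 being the rise that was lost.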

How the data were processed

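Raw counts of uniquely mapped reads per gene were deposited by the authors without normalization, from reads trimmed with Trimmomatic 0.39, aligned to the B73 version 4 genome with STAR and counted with featureCounts 2.0.1. Reads shared by near-identical genes are therefore missing. By the study's methods the replicates of a stage were pools of endosperms from independent ears, whereas the labels name a SMARTER kit and pools of 6, 7 and 8 DAP endosperms, and each library was taken at the single age its own label gives.

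Counts were tested with edgeR 4.0.16 in R 4.3.3 (filterByExpr, TMM, quasi-likelihood F test, Benjamini-Hochberg adjustment over all tested genes, threshold 0.05). The protoplast fit had stage as a covariate. Standard errors were derived from the fold change and its F statistic. Single libraries were compared on log2(CPM + 1) with library totals. Total counts were 15911047 to 24311056 in the replicated libraries and 22234742 to 30203337 in the others, and floors cover counting error only. No replicates agreed within sampling noise. The fits were also run on simulated counts that took their mean levels from these libraries and had a fixed spread between libraries. The common biological coefficient of variation of the data was 4.14% between the stages and 19% in the protoplast comparison. The simulated spread was below the latter, so that run does not show how the protoplast fit performs.

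Members and lists were chosen with earlier results of these data known. Values in every library are given for members with a symbol or annotation, the GA response list and, per hormone, the 4 largest called changes of each comparison and the 3 highest mean CPM. Further members were named after their values were seen, where a call turned on them. Alternatives were DESeq2 1.42.0, other scalings, filters and pseudocounts, no stage term, a replicate block and leaving out each replicate. Identifiers matched 0 entries of the RefSeq table at hand, so length, GC content and sequence were not used here.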

Additional observations from a re-analysis of the deposited data

Results flagged for a closer look

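In 4 of the genes named above, the single libraries of undigested endosperm and of protoplasts changed in opposite directions from 6 to 7 DAP, each by more than the counting error of its counts. Zm00001d029648 (GA biosynthesis) changed by -0.82 on the log2(CPM + 1) scale in undigested endosperm and by 0.87 in protoplasts. The iron-binding Zm00001d052475 (BR biosynthesis) changed by -0.20 and 0.26, Zm00001d004957 (BR biosynthesis) by -0.50 and 0.86, and Zm00001d010366 (BR response) by -0.55 and 0.43. In the replicated endosperm the log2 fold changes of these genes were -0.80, -0.14, -0.39 and -1.89, the first of them not past the threshold (adjusted p = 0.0909). There was 1 library per stage and kind, so the difference between the kinds was not tested.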

How the results depend on the processing

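Scaling by library totals gave 5 BR genes higher and 2 lower at 7 DAP, 0 BR genes lower by over 2 (DRG10 then stood at -1.98) and 1 BR gene higher after protoplasting. With at least 10 counts in every library, 0 GA genes rose by over 2 and 1 GA gene was higher after protoplasting, also by over 1, because scarce genes were no longer tested, and 3 BR genes fell between the stages, as Zm00001d010366 was not tested and Zm00001d004957 not past the threshold. Leaving out each replicate in turn gave 1 to 3 GA genes higher by over 2, 1 to 2 GA genes lower, 3 to 4 BR genes lower and 1 to 2 BR genes lower by over 2. The median change of GA genes in the pair of protoplast libraries was 0.20, and 0.30 with a pseudocount of 0.1.

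Changes of direction among the named genes were seen in comparisons in which the gene had no call. With library totals the stage change was 0.03 for Zm00001d037745, 0.11 for GID1 (Zm00001d038165), 0.11 for Zm00001d033680 and 0.04 for Zm00001d021927, and that after protoplasting was -0.02 for Zm00001d045563 and -0.14 for Zm00001d007180, the latter -0.03 without the stage term. With at least 10 counts, GID1 stood at 0.01 and Zm00001d033680 at 0.02. With 1 replicate left out, GID1 ranged from -0.03 to 0.04, Zm00001d033680 from -0.07 to 0.04 and Zm00001d033180 from -0.06 to 0.22.

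Replicate numbers were not taken to pair the libraries. Deviations of same-numbered libraries correlated by 0.10, 0.02 and 0.00 over genes, and not every library correlated best with its own number. This check is weak, because deviations from a mean of 3 libraries are tied to each other. A replicate block gave 7 GA genes higher and 1 lower, and 4 BR genes higher and 4 lower. The depth limits the scarcest genes, which stand on few counts per library.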

Other observations

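Genes of the same pathways that the study's tables annotate outside its hormone list were also followed. Some of those tables were made from these libraries, so the directions are not independent evidence. Of 5 further GA genes 4 were tested between the stages, and 1 rose, 2 fell and 1 did not pass, where 28.2% of all tested genes rose and 28% fell. GA20OX4, a GA oxidase, rose from 12.9 ± 0.949 to 157 ± 2.54 CPM (SD, n = 3), a change of 3.59 on the log2 scale (adjusted p = 1.25e-22), and it had 15.9 and 195 CPM in undigested endosperm against 14.7 and 38.6 CPM in protoplasts. The GAST1 homolog php20075a(gast), of a family of small proteins induced by GA in other plants, fell from 176 ± 5.11 to 58.9 ± 1.31 CPM (-1.57, adjusted p = 9.63e-19), and the gibberellin-regulated protein gene umc2186 fell from 192 ± 4.61 to 150 ± 4.49 CPM (-0.35, adjusted p = 6.54e-09). GA2OX6, whose family inactivates GA, did not pass between the stages (34.9 ± 3.09 and 32.6 ± 2.77 CPM, adjusted p = 0.206) and was higher in protoplasts, with 34.9 and 27.4 CPM in undigested endosperm against 63.8 and 162 CPM (1.72, adjusted p = 0.0316).

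On the BR side, 5 of 5 further genes rose from 6 to 7 DAP, where 28.2% of all tested genes rose. These 5 were chosen with earlier results of these data known, so the count is not evidence that BR genes rise. They are BZR8, from 1.37 ± 0.288 to 7.22 ± 0.975 CPM (SD, n = 3), a change of 2.39 on the log2 scale, BZR9, from 23.1 ± 0.472 to 45.4 ± 3.00 CPM (0.98), the transcription factors BZR1 (0.27) and BZR2 (0.16), and the receptor-like kinase gene SERK1 (0.49), with adjusted p-values of at most 4.87e-03 (edgeR). BZR8 had 24 and 147 counts in undigested endosperm and 0 and 1 in protoplasts, and BZR9 had 17.9 and 38.1 CPM against 7.55 and 10.8 CPM (-1.54, adjusted p = 6.09e-03), whereas BZR1 and BZR2 were higher in protoplasts by 0.69 and 0.81 on the log2 scale. Of 3 sterol genes, the sterol 14-demethylase csu25b(P450) and the sterol methyltransferase smt2 fell between the stages (-0.31 and -0.27), and the sterol isomerase IDP6633 rose (0.24).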
